A study of Mus musculus with 12 samples.

Results

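The genes described here are 41 components and regulators of the actin cytoskeleton and of focal adhesions, chosen by symbol, among 49585 genes counted in whole mouse pancreas. They comprise 3 actins, 5 subunits of the Arp2/3 complex, 4 actin turnover factors, 4 tropomyosins, 5 calponin family genes, 5 crosslinkers and membrane linkers, 3 myosin II genes, 9 focal adhesion genes and 3 small GTPases. All 41 symbols were matched to an Ensembl identifier and all 41 genes passed the filter on low counts. The study set cerulein, a cholecystokinin analogue that overstimulates acinar cells, against saline in C57Bl6 mice (called wild type) and in a congenic Atf3-/- line. Animals were 2 to 4 months old, each received 4 injections over 4 h, at 50 ug/kg for cerulein, and the pancreas was taken 4 h after the start. The groups, of 3 animals each with 1 library per animal, were Atf3-/- with cerulein (libraries C2, C3 and L4), Atf3-/- with saline (S1, K4 and Q1), wild type with cerulein (O1, O3 and N3) and wild type with saline (W1, K5 and R3).

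Actin exists as monomers and as filaments. The Arp2/3 complex and formins start new filaments, cofilin and its partners take old ones apart, tropomyosins and crosslinkers decide which filaments persist, and non-muscle myosin II pulls on them. Focal adhesions join filament ends through talin, vinculin and zyxin to integrins in the membrane, and small GTPases steer the whole system. Many of these genes are known targets of serum response factor (SRF), which binds a DNA element called the CArG box and is switched on by its MRTF cofactors when free actin monomers run low. In the acinar cell, filaments lie mainly under the apical membrane where zymogen granules are released, and overstimulation with cerulein is known to disturb that apical web.

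The CArG box (CC, then 6 bases each A or T, then GG) was searched in RefSeq promoters of GRCm38.p6 from 250 bases before to 50 after each start. An entry existed for 38 of the 41 genes, and Actb, Tagln and Pxn had none. The box was in 6 of the 38 (15.8%), against 1.81% of 27025 genes with a promoter of the same length. The 6 were Actg1, Fhl2, Vcl, Rnd3, Cnn2 and Myl9, and they include genes that rose, a gene that fell and a gene that did not pass the test. The stretches around the box are shown for the gene of each class that holds one and changed most, on the strand of the gene, with the box in capitals:
Actg1: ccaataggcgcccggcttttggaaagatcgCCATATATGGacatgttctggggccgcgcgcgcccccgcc
Fhl2: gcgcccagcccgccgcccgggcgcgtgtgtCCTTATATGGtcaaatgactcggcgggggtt
Rnd3: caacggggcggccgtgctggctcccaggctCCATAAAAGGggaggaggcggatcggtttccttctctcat
Cnn2: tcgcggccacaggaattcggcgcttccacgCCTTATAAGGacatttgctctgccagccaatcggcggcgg
Myl9: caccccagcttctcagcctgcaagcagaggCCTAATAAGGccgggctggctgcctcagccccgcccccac
These stretches lie at chr11:120348546-120348615 (minus strand) for Actg1, chr1:43163962-43164022 (minus) for Fhl2, chr2:51149172-51149241 (minus) for Rnd3, chr10:79988514-79988583 (plus) for Cnn2 and chr2:156775273-156775342 (plus) for Myl9. All 5 are upstream of the RefSeq start, and the boxes begin 90, 31, 100, 56 and 161 bases before it in that order. The Fhl2 stretch is at 1 of its promoters, and its other promoter holds a box too. TGANTCA, the AP-1 site read on both strands, was in 4 of the 38 genes (10.5%: Zyx, Actn4, Ezr and Myl12a), close to its share of all genes (8.97%). No gene held both motifs. These matches describe letters and not binding.

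Library totals ran from 18292997 to 32158629 counts, and levels are given in CPM, the usual depth-scaled count. Library C3, labelled as Atf3-/- with cerulein, had values like those of saline libraries, and the main results for the labelled knockout are also given without it. Unless stated otherwise, SE and adjusted p in wild type come from fits that include C3. It enters them through a spread shared by all groups, so they do not measure the spread of wild-type animals alone. Atf3 itself was not lower in the Atf3-/- libraries, at 1375 (C2), 1636 (L4) and 20.7 (C3) CPM in cerulein and 23.1, 7.44 and 13.5 CPM in saline, against 775, 599 and 394 CPM in wild type with cerulein and 3.23, 1.13 and 5.28 CPM in wild type with saline. The group is therefore called labelled knockout. Which part of the gene the allele lacks is not given in the sources used here, so the counts may lie outside it. Acinar markers summed to 182826 to 374185 CPM, the largest sum of any cell type in all 12 libraries. Libraries N3 and K4 held more leucocyte and adipocyte transcripts than the others.

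In wild-type pancreas, cerulein was followed by higher levels of most of these genes within 4 h. Of the 41, 29 rose, 1 fell and 11 did not pass (edgeR, adjusted p under 0.05 over 14329 genes), while 17.9% of all genes tested rose and 12.8% fell. The adjusted p of the 29 ran from 0.00918 to 0.036. The median log2 fold change of the 41 was 1.21, against 0.05 over all genes. All 3 cerulein libraries lay above all 3 saline libraries in 33 of the 41, against 27.5% of all genes. Summed over the 41, the level was 10305, 9468 and 8084 CPM with cerulein, against 1534, 1288 and 1604 CPM with saline. Without C3 in the fit, 30 rose (Pxn was added) and 1 fell, while 21.3% of all genes rose. Leaving out 1 wild-type library lowered the 29 to 19 (without W1), 13 (K5), 17 (R3), 21 (O1), 17 (O3) or 25 (N3). The share of all genes that rose was not counted in these runs, so a general loss of power cannot be told apart. The calls of 13 genes held in every alternative run: Actb, Actg1, Cfl1, Cap1, Wdr1, Tpm1, Tpm4, Actn1, Actn4, Myh9, Vcl, Zyx and Rhob. The other 17 calls, that of Myl9 included, were lost in at least 1, with adjusted p up to 0.122. In whole tissue, more RNA per cell and more cells of a type cannot be told apart.

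**Figure D1:**
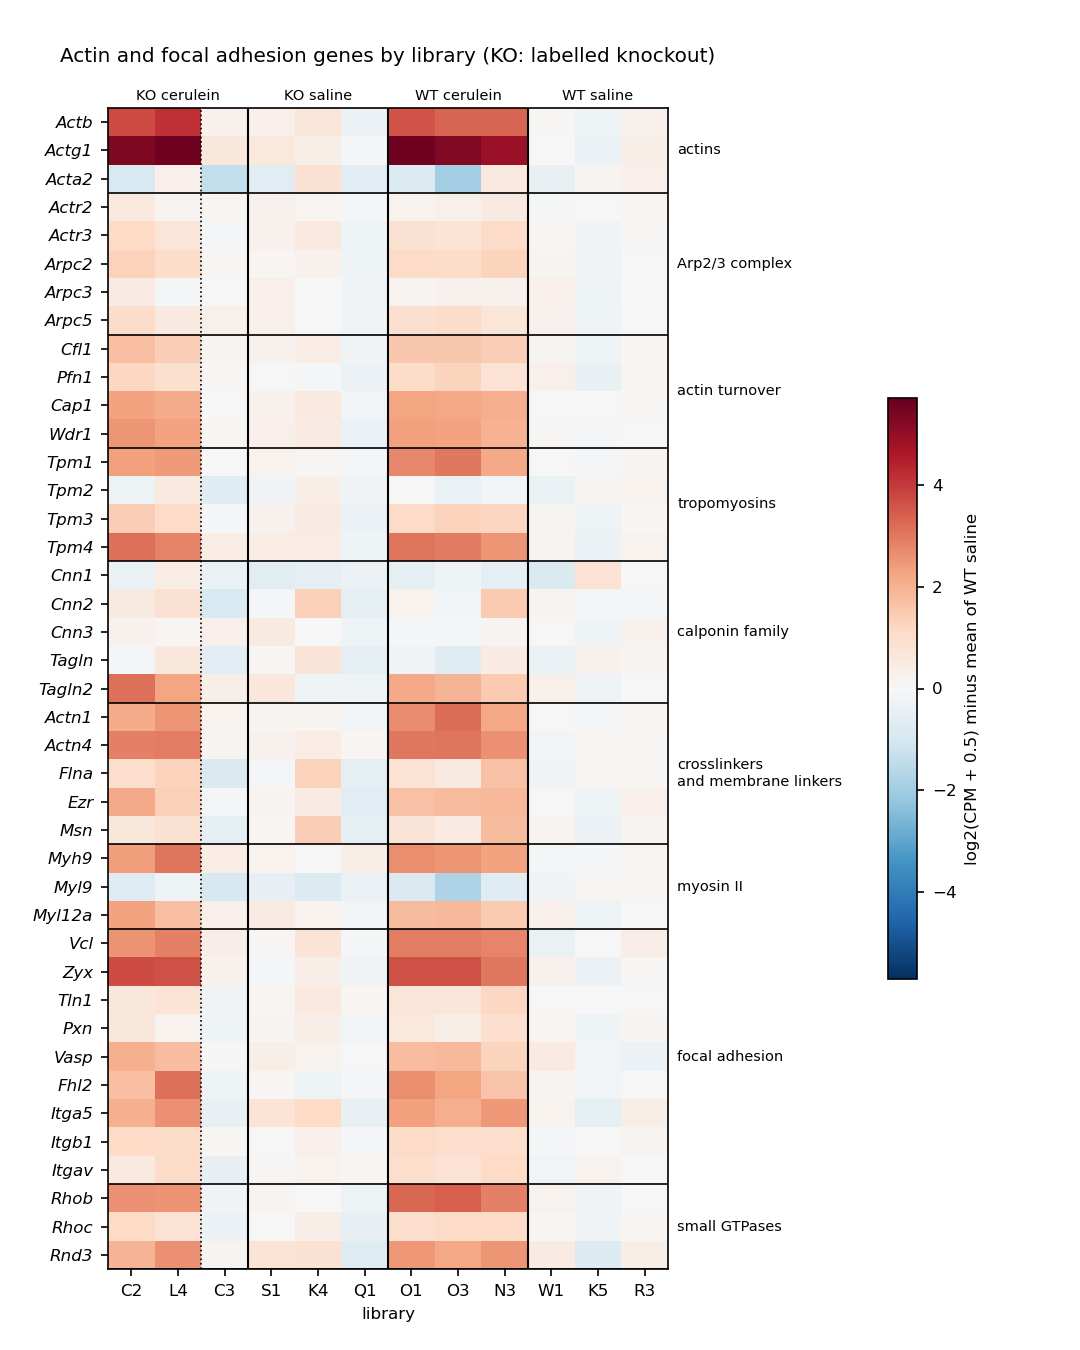
Level of each of the 41 genes (rows, by class) in each library (columns), as log2(CPM + 0.5) minus the mean of the wild-type saline libraries. KO is the labelled knockout, and a dotted line sets C3 apart. Libraries C2, L4, O1, O3 and N3 are red over most rows and C3 resembles the saline libraries. Acta2, Tpm2, Cnn1, Tagln and Myl9 are not red as a group.

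Both cytoplasmic actins rose, and the muscle actin did not. Actg1, which encodes gamma-actin (chr11:120345690-120348542, minus strand, GRCm38), stood at 3307, 2795 and 2157 CPM in wild type with cerulein, against 71.2, 56.9 and 89.9 CPM with saline. The groups were far apart and the log2 fold change was 5.24 (SE 0.94, adjusted p 0.00918), the largest of the 41. Actb, which encodes beta-actin and is often used as a reference gene (chr5:142903115-142906754, minus strand), stood at 2309, 1896 and 1934 CPM with cerulein, against 200, 157 and 227 CPM with saline. Its log2 fold change was 3.40 (SE 0.73, adjusted p 0.0106), and no cerulein library came near a saline one. Acta2, the smooth muscle actin, stood at 5.16, 2.03 and 13.6 CPM with cerulein, against 6.66, 10.2 and 11.1 CPM with saline, and the groups overlapped (log2 fold change -0.42, SE 0.68, adjusted p 0.672).

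Levels per kb of exon set the cytoplasmic actins side by side. Per kb of exon, Actb was the most abundant of the 41 in wild-type saline and Actg1 ranked 3, while in wild-type cerulein Actg1 ranked 1 with a mean of 1036 CPM per kb (SD 217, n = 3) and Actb ranked 2 with 764 (SD 85.4, n = 3). The ratio of Actg1 to Actb, in CPM per kb, was 1.44, 1.49 and 1.12 with cerulein, against 0.36, 0.366 and 0.399 with saline in wild type. In the labelled knockout it was 1.15 (C2), 0.967 (L4) and 0.49 (C3) with cerulein, against 0.464, 0.292 and 0.435 with saline. The ratio was 0.967 or more in the 5 cerulein libraries other than C3, and 0.49 or less in C3 and in the 6 saline libraries. It was chosen after its values were seen and is given as a description. Together Actb and Actg1 made up 54.5%, 49.5% and 50.6% of the summed level of the 41 in wild-type cerulein, against 17.6%, 16.6% and 19.7% in saline. Actg1 has 5 processed pseudogenes of at least 95% identity whose counts come to 1.7% of its own. Such matches cover 57.8% of its longest coding transcript and 0% of that of Actb. Reads left uncounted because they match several genes could thus differ between the actins, and their part in the ranks and the ratio was not tested.

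**Figure D2:**
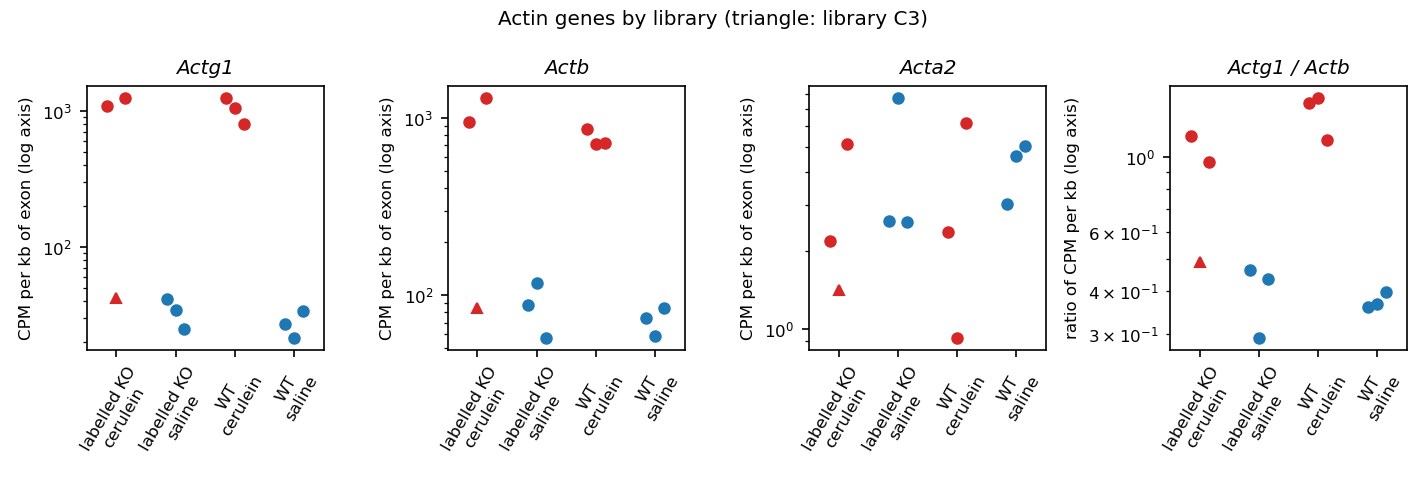
Actg1, Actb and Acta2 in CPM per kb of exon, and the ratio of Actg1 to Actb, per library on log axes. Red points are cerulein, blue saline and the triangle C3. Cytoplasmic actins and their ratio are higher in the 5 cerulein libraries other than C3, and Acta2 overlaps between groups.

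Of the 5 subunits of the Arp2/3 complex, which branches filaments, 3 rose. Arpc2 and Arpc5, 2 of its small subunits, had log2 fold changes of 1.13 (SE 0.27) and 0.88 (SE 0.23), and Actr3, an actin-related subunit, 0.92 (SE 0.29). Arpc2, for example, stood at 79.9, 76.9 and 89.2 CPM in wild type with cerulein, against 41.7, 32.7 and 37.9 CPM with saline, with no overlap. Actr2 (0.35, SE 0.17) and Arpc3 (0.20, SE 0.20) did not pass. Actr3 has 2 near copies whose counts come to 6.36% of its own. Such matches cover 91.5% of its longest coding transcript. Reads left uncounted because they match several genes could thus lower its level, which was not tested.

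All 4 turnover factors rose. Wdr1, which helps cofilin take filaments apart, stood at 108, 103 and 84.4 CPM with cerulein, against 22.2, 19.2 and 21.5 CPM with saline (log2 fold change 2.23, SE 0.49). Cap1, which recycles actin monomers, had 2.20 (SE 0.46) and no overlap between the groups. Cfl1, encoding cofilin, had 1.48 (SE 0.34), and Pfn1, encoding the monomer binder profilin, 1.03 (SE 0.29). Both were abundant in saline, where per kb they ranked 5 and 2 of the 41. Cfl1 shares stretches of at least 95% identity with Snx32 (354 bases), Gm6180 (498 bases) and Arcn1 (140 bases). Their counts come to 115% of its own, nearly all of them from Arcn1, which has the shortest stretch. Ppt1 overlaps Cap1 on the opposite strand and shares a stretch of 129 bases with it. The whole count of Ppt1 comes to 11.5% of that of Cap1, so the levels of Cfl1 and Cap1 are uncertain.

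Among the tropomyosins, which coat filaments, 3 of 4 rose. Tpm4 stood at 355, 337 and 247 CPM with cerulein, against 47, 33.8 and 49.2 CPM with saline (log2 fold change 2.85, SE 0.55). Tpm1 had 2.69 (SE 0.50) and Tpm3 1.21 (SE 0.33). Tpm2, most abundant in muscle, had 2.98, 2.13 and 2.55 CPM with cerulein, against 2.13, 3.34 and 3.43 CPM with saline, and its log2 fold change was -0.22 (SE 0.37). Tpm3 counts could include those of Tpm3-rs7, a near copy whose counts come to 12.8% of them. Such matches cover 85.4% of the longest coding transcript of Tpm3, so reads that match both genes could also be left uncounted, which was not tested.

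Of the calponin family, which binds filaments, 1 of 5 rose. Tagln2, the non-muscle transgelin, stood at 219, 191 and 141 CPM with cerulein, against 60.9, 40.9 and 48.2 CPM with saline (log2 fold change 1.88, SE 0.55). Tagln, its smooth muscle counterpart, overlapped between the groups (-0.10, SE 0.44). Cnn1, the smooth muscle calponin, was near the limit of detection, with 5 to 7 counts per wild-type cerulein library against 1 to 25 in saline, and its -1.36 (SE 0.80) did not pass. Cnn3 had -0.03 (SE 0.21). Cnn2 had 0.77 (SE 0.63). Opposite-strand genes overlap Tagln, and the strand setting of the counting is not given in the sources used here, so its level is uncertain. The whole count of 1 of them, Pcsk7, comes to 123% of that of Tagln, but the stretch they share is 108 bases.

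Among crosslinkers and membrane linkers, 3 of 5 rose. Actn4, the non-muscle alpha-actinin that bundles filaments, stood at 402, 420 and 304 CPM with cerulein, against 44.6, 54 and 52.8 CPM with saline (log2 fold change 2.90, SE 0.55). Actn1, the alpha-actinin of stress fibres and adhesions, had 2.77 (SE 0.48). Ezr, encoding ezrin, which ties filaments to the apical membrane, had 1.80 (SE 0.47). Its relative Msn, encoding moesin, had 1.12 (SE 0.54, adjusted p 0.135), and Flna, encoding filamin A, had 1.09 (SE 0.57, adjusted p 0.171). For Msn and Flna all 3 cerulein libraries were above all 3 saline libraries, but 1 of them, N3, was far above the others.

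Flna, Msn and Cnn2 were each the highest of their group in N3 (wild type with cerulein) and in K4 (labelled knockout with saline). N3 over the mean of O1 and O3 gave 2.02, 2.34 and 2.99 for Flna, Msn and Cnn2, and K4 over the mean of S1 and Q1 gave 3.03, 3.03 and 3.45. The same ratios were 3.77 and 2.97 for Acta2 and 1.92 and 2.04 for Tagln. The summed leucocyte markers came to 209 CPM (N3) and 170 CPM (K4), against 18.8 to 72.1 CPM in the other libraries. The summed adipocyte markers came to 326 and 415 CPM in N3 and K4, against 29.4 to 123 CPM elsewhere. Their part in these results was not tested. Without both libraries, the wild-type log2 fold changes were 0.55 for Msn, 0.63 for Flna and -0.01 for Cnn2 (adjusted p 0.294, 0.352 and 0.996), and -1.41 for Acta2 and -0.53 for Tagln (adjusted p 0.0942 and 0.357). Without N3 alone, Acta2 had -1.36 (adjusted p 0.158). Without both libraries, 24 of the 41 still rose, though Actr3, Itga5, Itgav, Rhoc and Tln1 no longer passed. The share of all genes was not counted in that run.

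**Figure D3:**
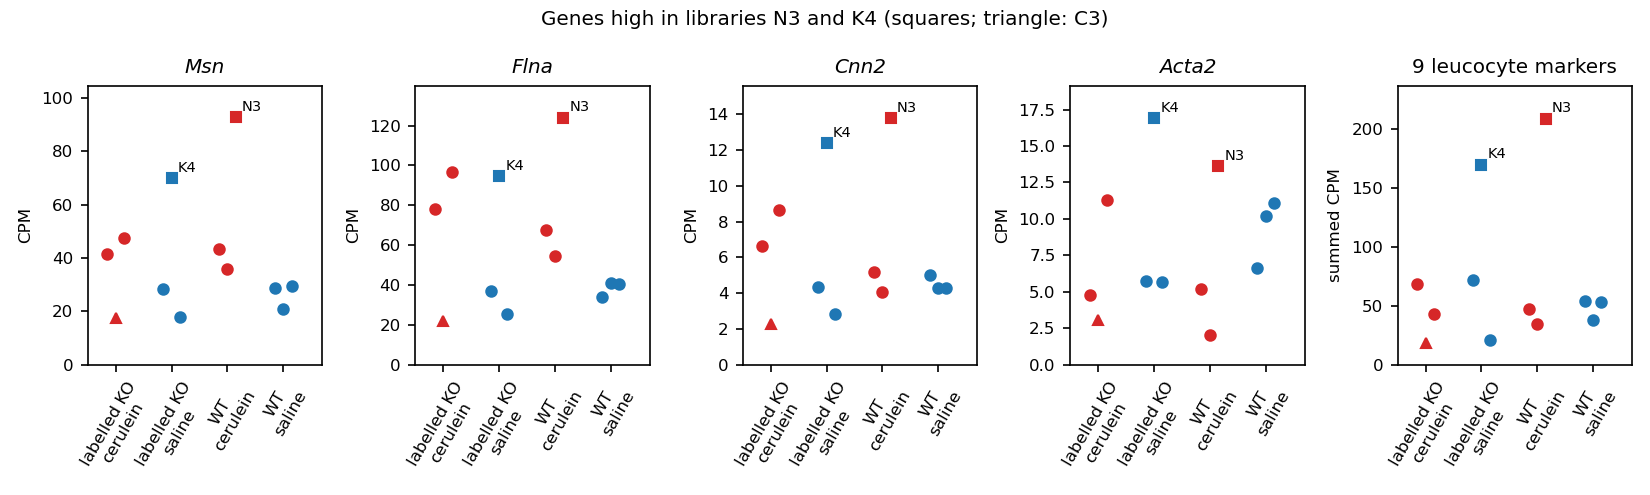
Msn, Flna, Cnn2 and Acta2 in CPM, and the summed CPM of 9 leucocyte markers, per library. Red points are cerulein, blue saline, squares N3 and K4, and the triangle C3. N3 and K4 are the highest libraries in each panel except that Flna in L4 (96.5 CPM) is above K4 (94.7 CPM).

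Of the myosin II genes, the heavy chain and 1 light chain rose while another fell. Myh9, the non-muscle heavy chain, stood at 769, 706 and 602 CPM with cerulein, against 117, 117 and 132 CPM with saline (log2 fold change 2.51, SE 0.50). Myl12a, a regulatory light chain of non-muscle myosin, had 1.71 (SE 0.41). Its near copies, of which Myl12b has the most counts, come to 29.1% of its counts, and Myl12b fell by 0.79 on the log2 scale (SE 0.24). Myl9, the regulatory light chain of smooth muscle and of some non-muscle cells, stood at 2.62, 1.11 and 2.94 CPM with cerulein, against 4.33, 5.29 and 5.47 CPM with saline. It fell by 1.17 on the log2 scale (SE 0.34, adjusted p 0.0266), and was the only 1 of the 41 with all cerulein libraries below all saline libraries.

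The genes among the 41 that are typical of smooth muscle, Acta2, Tpm2, Cnn1, Tagln and Myl9, gave 0 rises and 1 fall in wild type, beside 17.9% and 12.8% of all genes. A list of 5 genes is too short to be set against those shares. The 5 come from several of the classes above and were grouped with their values known. None that rose is among them, so their contrast with the other members is partly one of choice. Smooth muscle and pericyte markers outside the 41 gave 0 rises and 1 fall among 11, with summed levels of 37.4 to 86.1 CPM with cerulein against 49.3 to 64 CPM with saline. Duct markers gave 4 rises of 6 and acinar markers 3 falls of 7, endothelial markers 0 rises and 1 fall of 6 (Kdr, which fell by 0.65 on the log2 scale, SE 0.21, adjusted p 0.0407), and fibroblast, leucocyte, adipocyte, mesothelial and islet markers none in either direction. The part of these markers in the results for the 41 was not tested.

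Of the 9 focal adhesion genes, 8 rose. Zyx, encoding zyxin, a sensor of filament tension, stood at 338, 338 and 221 CPM with cerulein, against 31.6, 21.4 and 28.2 CPM with saline (log2 fold change 3.46, SE 0.69). Vcl, encoding vinculin, which strengthens the link of talin to actin, stood at 117, 117 and 109 CPM with cerulein, against 11.5, 15.6 and 19.8 CPM with saline (2.87, SE 0.53). Fhl2, a LIM protein found at adhesions and in the nucleus, stood at 4.49, 3.19 and 1.95 CPM with cerulein, against 0.388, 0.205 and 0.276 CPM with saline (3.47, SE 0.98). The groups did not overlap for any of the 3, though Fhl2 rested on 4 to 7 counts per wild-type saline library.

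Vasp, which speeds filament growth, had 1.62 (SE 0.42), and Tln1, encoding talin, which activates integrins, had 0.87 (SE 0.25). Pxn, encoding the scaffold paxillin, had 0.65 (SE 0.25) and missed the threshold at an adjusted p of 0.0668, with all 3 cerulein libraries above all 3 saline libraries. Of the integrins, Itga5, the alpha chain of the fibronectin receptor, stood at 42.8, 34.8 and 46.6 CPM with cerulein, against 9.31, 5.39 and 10.2 CPM with saline (2.31, SE 0.65). Its partner Itgb1 had 1.04 (SE 0.25) and Itgav 1.03 (SE 0.31). Opposite-strand neighbours overlap Vcl (Ap3m1) and Tln1 (Creb3), and their whole counts come to 34.3% and 30.2% of those of Vcl and Tln1. Vcl and Ap3m1 share a transcript stretch of 2094 bases, so reads from Ap3m1 may enter Vcl. For Tln1 no shared stretch of at least 100 bases was found. Both neighbours fell, Ap3m1 by 0.79 and Creb3 by 1.01 on the log2 scale.

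All 3 small GTPases rose. Rhob, an immediate early gene, stood at 247, 275 and 185 CPM with cerulein, against 28.7, 21.5 and 25.8 CPM with saline (log2 fold change 3.22, SE 0.57). Rnd3, an atypical member that opposes contraction, had 2.45 (SE 0.64). Rhoc had 1.10 (SE 0.33).

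The labelled knockout was then asked the same question. With all 3 cerulein libraries, 0 of the 41 passed, as 0 of all 14329 genes did (0% of genes in either direction), although 24 of the 41 had an unadjusted p under 0.05, beside 22.7% of all genes. DESeq2 gave 21 rises, beside 8.65% of all genes, and limma-voom 0. Without C3, 28 of the 41 rose and 0 fell in edgeR, while 18.7% of all genes rose and 10.5% fell. DESeq2 and limma-voom each gave 28 rises too, beside 18.5% and 18% of all genes. The 28 genes were all among the 30 that rose in wild type in the same fit. Pxn and Tln1 passed in wild type alone, and their responses were not shown to differ (differences of -0.35, SE 0.30, and -0.43, SE 0.26).

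These calls depended on library C3. Its level was at or below the highest of the 6 saline libraries for 24 of the 28 genes, above it for Actg1, Arpc5, Actn1 and Myh9, and below both C2 and L4 for all 28. Actg1 stood at 2885 (C2), 3329 (L4) and 111 (C3) CPM with cerulein, against 109, 90.8 and 66.4 CPM with saline. Myh9 stood at 642, 1016 and 161 CPM in the same libraries, against 138, 123 and 156 CPM with saline. The summed level of the 41 was 10182 (C2), 11473 (L4) and 1610 (C3) CPM, against 1732, 1930 and 1306 CPM with saline. C2 and L4 were above all 3 saline libraries in 29 of the 41, against 29.3% of all genes.

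Without C3, Actg1 had a log2 fold change of 5.13 (SE 0.30) in the labelled knockout, Fhl2 4.15 (SE 0.58), Actb 3.68 (SE 0.30), Zyx 3.65 (SE 0.26) and Tagln2 2.67 (SE 0.35). With C3 the values were 4.57 (SE 0.91) for Actg1, 3.61 (SE 0.99) for Fhl2, 3.14 (SE 0.73) for Actb, 3.13 (SE 0.68) for Zyx and 2.21 (SE 0.55) for Tagln2, with an adjusted p of 0.0881 for Fhl2 and 0.086 for the other 4. In wild type the same fit gave 5.24 for Actg1. The labelled knockout then rests on 2 cerulein libraries. Of these, L4 also held more islet transcripts, with summed islet markers of 10570 CPM (L4), 1224 CPM (C2) and 424 CPM (C3), against 729 to 1073 CPM in labelled-knockout saline. The wild-type libraries had 1295 to 3293 CPM with cerulein and 666 to 2790 CPM with saline. Without C3, 2 of 6 islet markers rose in the labelled knockout, beside 18.7% of all genes, and a list of 6 markers is too short to be set against that share. Their part in the results was not tested.

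**Figure D4:**
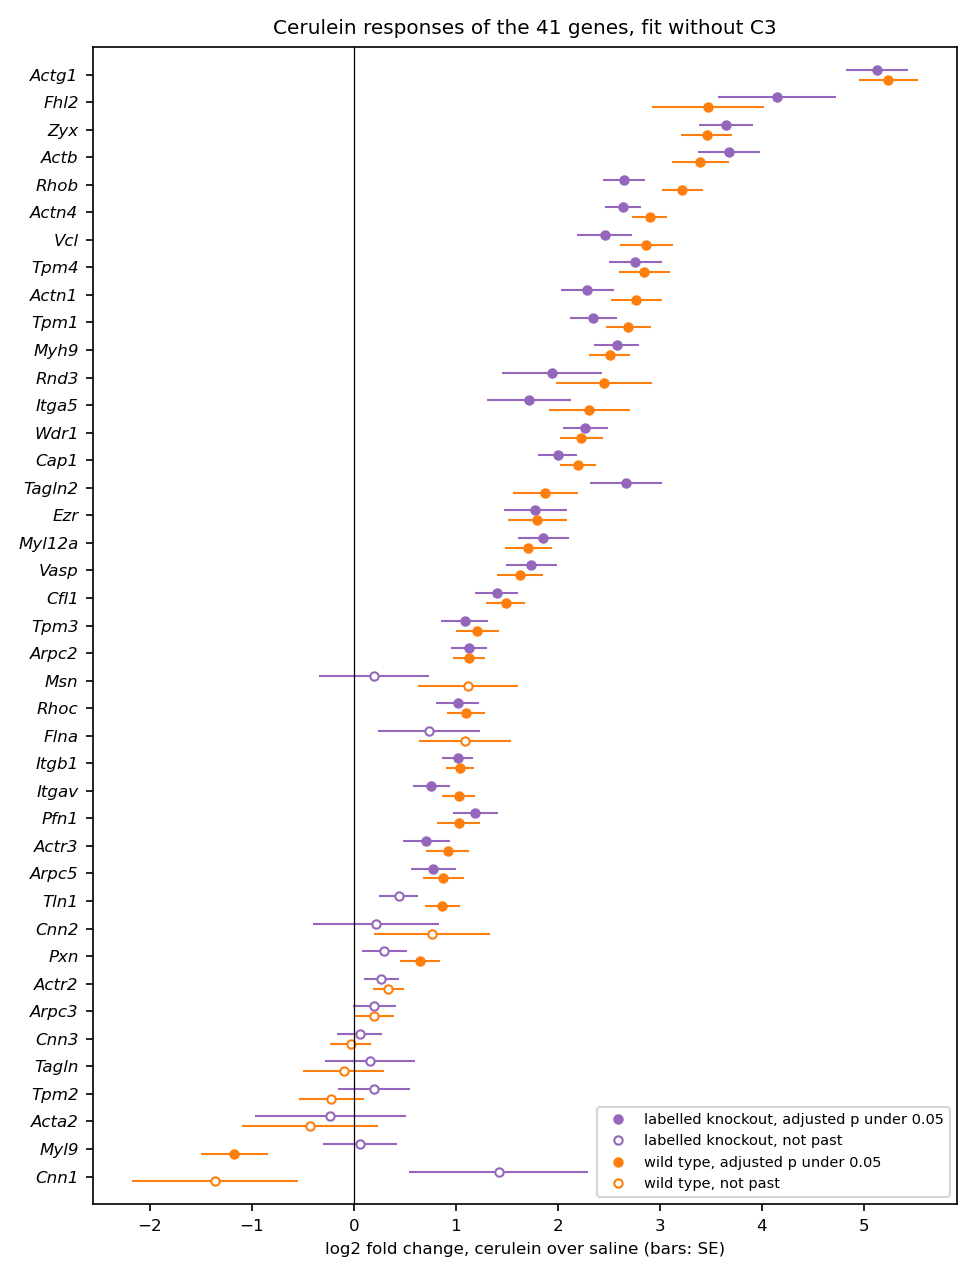
Log2 fold change of cerulein over saline for the 41 genes, with bars of 1 SE, in the labelled knockout and in wild type, from the fit without C3. Filled points passed an adjusted p of 0.05. From Actg1 at the top to Cnn1 at the bottom, the pairs overlap for most genes, and Cnn1, Myl9, Msn and Tagln2 are the widest apart.

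Direct comparisons of the genotype labels gave no call. In saline, in cerulein and for the difference of the responses, 0 of the 41 and 0% of all genes passed with edgeR, and 0 of the 41 with DESeq2 and limma-voom, with and without C3. The share of all genes past the adjusted threshold was not counted with DESeq2 and limma-voom. By edgeR, the counts at an unadjusted p under 0.05 were 0 in saline, 0 in cerulein and 1 for the difference of the responses, beside 0.419%, 8% and 4.15% of all genes. DESeq2 gave 0, 2 and 2 in that order, beside 0.461%, 9.16% and 5.32%, and limma-voom 0, 2 and 1, beside 0.356%, 6.08% and 2.81%. Without C3 the counts were 0, 2 and 2 by edgeR, beside 0.896%, 5.07% and 3.45% of all genes. They were then 0, 2 and 3 by DESeq2, beside 0.733%, 5.1% and 3.56%, and 0, 2 and 1 by limma-voom, beside 0.686%, 4.99% and 2.93%. Counts of 1 to 3 among 41 genes are too small to be read against those shares. The genes by edgeR without C3 are named for their values only. Tagln2 stood at 434 (C2), 235 (L4) and 63.2 (C3) CPM in cerulein, against 219, 191 and 141 CPM in wild type (0.87, SE 0.34, adjusted p 0.974 without C3, and 0.41, SE 0.53, adjusted p 0.787 with it). Rhob stood at 154 (C2), 150 (L4) and 21.5 (C3) CPM, against 247, 275 and 185 CPM in wild type (-0.63, SE 0.21, adjusted p 0.949 without C3, and -1.12, SE 0.53, adjusted p 0.62 with it). For the difference of the responses, Myl9 had 1.23 (SE 0.48) and Cnn1 2.78 (SE 1.20) without C3, both with adjusted p 0.999, and 1.08 (SE 0.48) and 2.53 (SE 1.15) with it, both with adjusted p 0.812. Without C3, the SE of the difference of responses ran from 0.21 (Itgb1) to 1.20 (Cnn1) on the log2 scale. Differences of that size were not detectable in that fit.

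Other genes of the pathway, 119 chosen by symbol in 9 lists, of which 113 passed the filter on low counts, were counted in the same fit. In wild type 54 rose and 4 fell, beside 17.9% and 12.8% of all genes, with a median log2 fold change of 0.70. Leaving out 1 wild-type library lowered the 54 to 37 (without W1), 34 (K5), 30 (R3), 36 (O1), 32 (O3) or 43 (N3). The share of all genes was not counted in these runs. Of SRF and its cofactors, 4 of 7 rose and 1 fell. Srf stood at 97.2, 77.8 and 68.5 CPM with cerulein, against 15.5, 12.9 and 13.4 CPM with saline (2.54, SE 0.54). Mrtfa, its cofactor, had 1.64 (SE 0.32) and Elk4, another partner, 0.99 (SE 0.25), while the related cofactor Mrtfb fell by 0.81 (SE 0.24).

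Among turnover and capping genes, 8 of 18 rose and 1 fell. Dstn, encoding the cofilin relative destrin, stood at 2349, 2276 and 1518 CPM with cerulein, against 64.7, 61.3 and 65.7 CPM with saline (5.0, SE 0.95), which sets it beside Actg1. Tmsb10, a monomer-binding peptide, had 3.19 (SE 0.75) and Capg, a capping protein, 1.54 (SE 0.50), while Limk2, a kinase that inactivates cofilin, fell by 1.52 (SE 0.33). Arp2/3 subunits and activators gave 3 rises of 7 (Cttn 1.33, Arpc4 0.80 and Wasf2 0.43), and formins and Ena/VASP genes 4 of 9 (Daam1 1.55, Diaph1 1.40 and Enah 1.06).

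Crosslinkers and linkers gave 8 rises and 1 fall of 17 (Plec 2.59 and Pdlim7 1.69, and Nf2 fell by 0.55). Myosin and kinase genes gave 5 rises and 1 fall of 11 (Myo1e 2.20, Rock2 1.36 and Myl6 1.0). Focal adhesion and integrin genes gave 15 rises and 0 falls of 28, led by Nedd9 (4.14, SE 0.66), a scaffold that stood at 61.5, 77.5 and 83.2 CPM with cerulein against 4.4, 4.32 and 3.86 CPM with saline, then Itga6 (2.98) and Tes (2.93). Other small GTPases and their regulators gave 7 rises of 14 (Rnd2 2.96, Arhgef2 2.12 and Rhog 1.13), and the other muscle actins 0 of 2 (Acta1 0.22, SE 1.44). In the labelled knockout 0 of the 113 passed with C3, and 51 rose and 4 fell without it, beside 18.7% and 10.5% of all genes. Dstn stood at 2940 (C2), 2211 (L4) and 75.4 (C3) CPM with cerulein, against 70.1, 53.5 and 68.3 CPM in saline.

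**Figure D5:**
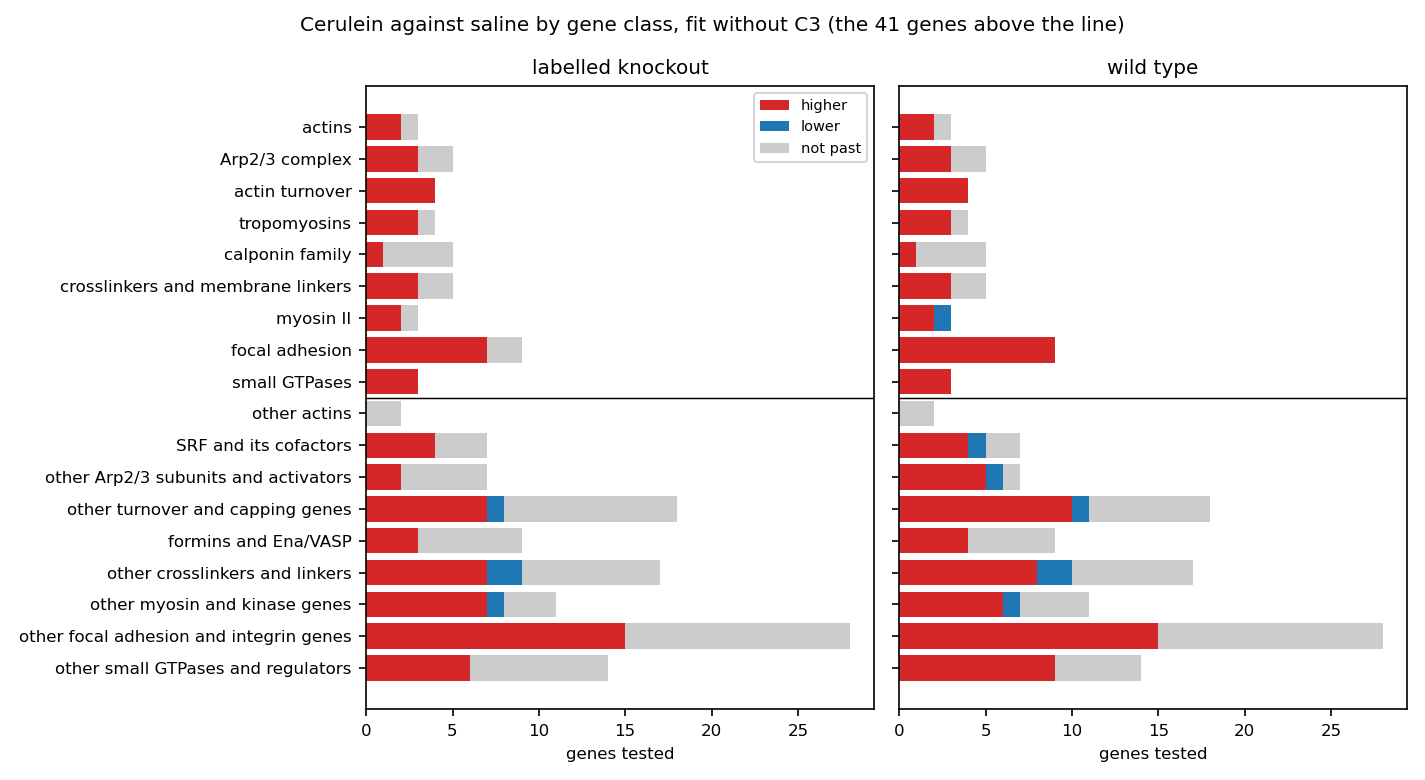
Number of genes higher, lower or not past an adjusted p of 0.05 by gene class, in the labelled knockout and in wild type, from the fit without C3. The 41 genes are above the line and the other pathway genes below. The calponin family (1 rise of 5) and the other actins (0 of 2) hold the fewest rises in both panels.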

How the data were processed

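The authors deposited raw counts for each Ensembl gene, with no normalization, from a stranded total RNA kit per the labels' protocols. HTSeq, DESeq2 and mm10 are named per the submitters' processing notes, without versions. Aligner, annotation and strand setting: not given in the sources used here. Of 49585 genes, 49326 matched GENCODE M21 (GRCm38).

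Genes passing edgeR's filterByExpr (14329, or 14733 without C3) were scaled by TMM before a robust quasi-likelihood fit of 4 group means (R 4.3.3, edgeR 4.0.16, biological coefficient of variation 0.357). P-values are two-sided and adjusted by Benjamini-Hochberg over every gene tested (threshold 0.05). They rest on a spread between animals that is estimated over all 4 groups at once. C3 therefore enters the SE and p-values of wild-type results too. For Atf3 in wild type, the log2 fold change was 7.51 (SE 1.36) with all 12 libraries and 7.50 (SE 0.67) without C3. SE is the log2 fold change over the square root of F. CPM use TMM-scaled totals. Alternatives used DESeq2 1.42.0 and limma 3.58.1 and left out each library. Figures used matplotlib 3.10.9, and near copies were found with BLAST 2.17.0 (at least 95% identity over 100 bases).

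The 41 genes, the lists and the tests were chosen with earlier results of these data known. From each pathway list up to 3 genes past the threshold with the largest wild-type change are named, or the most abundant where none passed, and genes that fell were named after their values were seen. The fits without C3 by other tools, the fit without N3 and K4, and the actin ratio were chosen after seeing the data. The smooth muscle genes among the members were not a planned class and were grouped with their values known. A gene that this rule names is not reported here, though it stays in the tests and counts.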

Additional observations from a re-analysis of the deposited data

How the results depend on the processing

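The 29 wild-type rises became 28 to 31 under other scaling, filters and tools and in a fit of the groups compared, 32 and 30 without C3 by DESeq2 and limma-voom, 24 without N3 and K4, and 13 to 30 when 1 library was left out. The 1 fall, Myl9, became 0 to 1, lost without K5, R3, O1 or O3. Leaving out a library also means fewer samples in the test. Among all the wild-type alternatives, other tools, filters and scaling included, only the edgeR fit without C3 had its share of all genes counted.

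In the labelled knockout the 0 rises became 21 with DESeq2, 28 without C3 by edgeR, DESeq2 and limma-voom, and 0 in every other alternative, so that leaving out 1 library gave 0 to 28 and 0 falls. Counts for the genotype labels and the difference of responses stayed 0 in every alternative. For these, the share of all genes past the threshold was counted only by edgeR, with all libraries and without C3. For the other pathway genes, leaving out 1 library gave 30 to 61 rises and 1 to 6 falls in wild type, and 0 to 51 rises and 0 to 4 falls in the labelled knockout. Their wild-type falls were 1 with no filter and 7 without C3 by DESeq2. Their labelled-knockout rises were 31 with DESeq2 and, without C3, 50 by DESeq2 and 50 by limma-voom, and the falls were 6 and 4.

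The genes that changed direction were Acta2, Arpc3, Tpm2, Cnn2, Cnn3, Tagln, Flna, Msn, Myl9 and Pxn, and none of these values passed the test. The cause was not tested. In wild type, leaving out 1 library gave log2 fold changes of -1.36 to 0.01 for Acta2, -0.15 to 0.11 for Cnn3 and -0.48 to 0.15 for Tagln. Cnn3 was 0.02 with no filter, and Cnn2 was -0.01 without N3 and K4. In the labelled knockout, leaving out 1 library gave -1.26 to 0.13 for Acta2, -0.05 to 0.28 for Arpc3, -0.60 to 0.20 for Tpm2, -0.56 to 0.65 for Cnn2, -0.06 to 0.33 for Cnn3, -0.53 to 0.28 for Tagln, -0.07 to 1.02 for Flna, -0.46 to 0.58 for Msn, -0.36 to 0.06 for Myl9 and -0.14 to 0.30 for Pxn. Without N3 and K4 it gave 0.13 for Acta2, 0.14 for Tpm2, 0.65 for Cnn2, 0.28 for Tagln and 0.58 for Msn. Without C3, DESeq2 gave 0.16 for Tpm2, 0.20 for Cnn2, 0.13 for Tagln, 0.18 for Msn and 0.02 for Myl9, and limma-voom 0.20 for Tpm2, 0.45 for Cnn2, 0.21 for Tagln, 0.43 for Msn and 0.09 for Myl9.

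No paired analysis was possible because the groups have no library code in common. Depth limits Cnn1, Fhl2 and Tpm2 most, the members with the fewest counts.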
